A study of Mus musculus with 4 samples.

Results

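The 8 symbols of arginine, polyamine and itaconate metabolism were looked up in the transcriptome of perivascular adipose tissue (PVAT) around the mouse femoral artery, by matching each symbol to the row names of the deposited table. They stand for 7 genes, because *Irg1* and *Acod1* name the same gene, and all 7 had a row among the 12661 genes of the table. *Irg1* was listed under that older symbol. The tissue was the outer tissue around the femoral artery, collected 48 h after endovascular wire injury in the injury group and 48 h after sham operation in the sham group, with 2 libraries in each. All animals were 11-week-old ovariectomized female mice of the C57BL/6 strain with a wild type genotype, and the wire was 0.38 mm in diameter. The groups differed in the operation only, so a comparison of injury with sham says nothing of intact females or of males. Each library was bulk RNA of a mixed tissue, and a larger number of cells of a type cannot be told apart from more RNA per cell.

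L-arginine stands at a branch point in activated macrophages. It can be hydrolysed to ornithine and urea, whereas the inducible nitric oxide synthase encoded by *Nos2* (iNOS) oxidises it to citrulline and nitric oxide. Ornithine feeds proline synthesis and, through ornithine decarboxylase, the polyamines putrescine, spermidine and spermine, which growing cells need. Citrulline can be turned back into arginine. Itaconate is made from the TCA cycle intermediate cis-aconitate by the enzyme that *Irg1* (*Acod1*) encodes, is abundant in inflammatory macrophages and inhibits succinate dehydrogenase. *Nos2* is widely used as a marker of classical macrophage activation in the mouse.

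The deposited values are signed numbers on a log-like scale, and a value of 0 does not mean absence of an mRNA. What 0 stands for and the base of the scale are not stated in the sources used here, and sequencing depth and abundance are unknown. Values and differences are therefore given in deposited units, levels are not compared between genes, except in descriptions that say so, and no fold change or detection limit is given. Injury and sham were compared with limma over all 12661 genes with Benjamini-Hochberg adjustment, and a gene was called at an adjusted p-value under 0.05. By this rule 941 genes (7.43%) were called, 476 higher after injury (3.76%) and 465 lower (3.67%). An exact permutation test of 2 against 2 libraries cannot go below p = 0.333, two-sided, so the calls rest on the variance that limma shares across genes. They were sensitive to the libraries used. Without sham replicate 1 limma called no gene, with 1960 genes at an unadjusted p-value under 0.05, and without sham replicate 2 it called 1 gene.

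None of the 7 genes was called by limma, and 3 of them, *Nos2*, *Sat1* and *Irg1*, had an unadjusted p-value under 0.05, which 29.5% of all genes had. At an adjusted p-value under 0.1, which 18.3% of all genes reached, *Sat1* and *Irg1* were called. In *Nos2*, *Sat1* and *Irg1* both injury libraries lay above both sham libraries, an order found in 31.6% of all genes, while 30.3% had the reverse order and groups without overlap in either direction made up 61.9%. In the remaining 4, *Ass1*, *Asl*, *Odc1* and *Azin1*, the groups overlapped. The median difference of the 7 genes was -0.02, against 0.01 for all genes. Among all differences, that of *Irg1* ranked 3 from the highest.

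**Figure D1:**
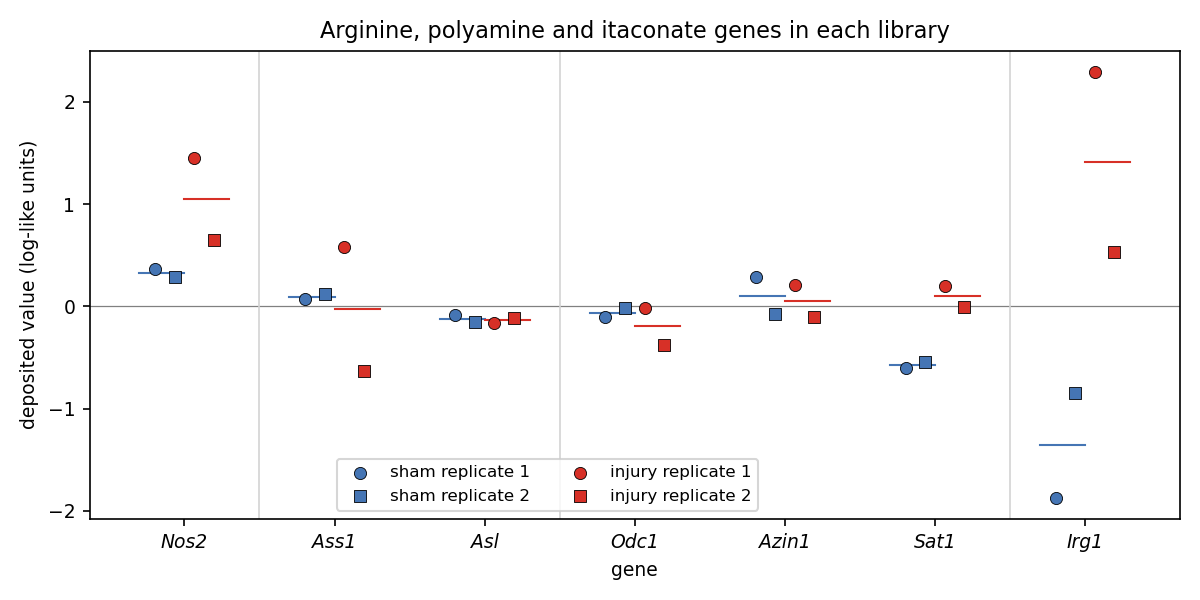
Deposited value (log-like units) of the 7 genes in each library, with sham in blue, injury in red, circles for replicate 1, squares for replicate 2 and short lines at the group means. Injury and sham values are apart for *Nos2*, *Sat1* and *Irg1* and overlap for *Ass1*, *Asl*, *Odc1* and *Azin1*.

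*Nos2*, which encodes iNOS, the high-output nitric oxide synthase of activated macrophages, lies on the plus strand at chr11:78734289-78773756 (mm9, GENCODE annotation). The sham libraries were close together at 0.37 and 0.29. In the injury group *Nos2* was at 1.46 and 0.65, and replicate 2 was nearer to the sham libraries than to replicate 1. The difference of 0.72 (standard error 0.28, 95% interval 0.03 to 1.42) was not called (adjusted p = 0.159 from limma). Its size was set by injury replicate 1, since it was 0.32 without that library and 1.13 without injury replicate 2 (adjusted p = 0.318 and 0.0168 from limma).

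*Ass1* and *Asl* encode argininosuccinate synthase and argininosuccinate lyase, which together rebuild arginine from citrulline. *Ass1*, on the plus strand at chr2:31325727-31376192, was at 0.08 and 0.12 in the sham libraries and at 0.58 and -0.63 in the injury libraries. The injury libraries thus lay on opposite sides of a narrow sham range, and the mean difference of -0.12 (standard error 0.39, adjusted p = 0.859 from limma) says little of either. Without injury replicate 2 the difference of *Ass1* was 0.48, and without injury replicate 1 it was -0.73. *Asl*, on the minus strand at chr5:130487128-130501002, was at -0.09 and -0.15 after sham operation and at -0.16 and -0.11 after injury. These were the most even values of the 7 genes, and the 95% interval of the difference of *Asl* ran from -0.35 to 0.31 (difference -0.02, adjusted p = 0.940 from limma).

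Polyamines are handled by *Odc1*, *Azin1* and *Sat1*. *Odc1* encodes ornithine decarboxylase, the first and rate-limiting step of polyamine synthesis, and *Azin1* encodes antizyme inhibitor 1, which protects ornithine decarboxylase from degradation. *Sat1* encodes spermidine/spermine N1-acetyltransferase, which marks polyamines for breakdown and export. *Odc1*, on the plus strand at chr12:17551679-17558308, was at -0.10 and -0.02 in the sham libraries and at -0.01 and -0.38 in the injury libraries. The difference of *Odc1* was -0.13 (95% interval -0.57 to 0.30, adjusted p = 0.646 from limma). *Azin1*, on the minus strand at chr15:38417185-38449021, was at 0.28 and -0.07 after sham operation and at 0.21 and -0.10 after injury. Replicate 1 was above replicate 2 in both groups, and the difference of *Azin1* was -0.05 (95% interval -0.54 to 0.43, adjusted p = 0.881 from limma). For both genes the sham and injury values overlapped, and their sign changed when single libraries were left out.

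*Sat1*, on the minus strand at chrX:151647675-151650992, gave another pattern. It was at -0.60 and -0.54 in the sham libraries and at 0.20 and -0.01 in the injury libraries. Both injury libraries lay above both sham libraries, with little spread within either group. The difference of *Sat1* was 0.67 (standard error 0.15, 95% interval 0.31 to 1.04) and missed the threshold narrowly (adjusted p = 0.0544 from limma). Fits that omitted a library gave 0.57 to 0.78, and without injury replicate 2 it was called (adjusted p = 0.0407 from limma).

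*Irg1*, the itaconate-producing enzyme gene also known as *Acod1*, lies on the plus strand at chr14:103446194-103455790. It was at -1.87 and -0.85 in the sham libraries and at 2.29 and 0.53 in the injury libraries. The difference of *Irg1*, 2.77, was the highest of the 7 genes, but its injury libraries were also the furthest apart, by 1.76. With a standard error of 0.63 it was not called (adjusted p = 0.0585 from limma, 95% interval 1.20 to 4.35). It passed the threshold after quantile normalization (2.42, adjusted p = 0.0441 from limma) and after scaling the columns to the same spread (2.68, adjusted p = 0.0461 from limma). It also passed without injury replicate 2 (3.65, adjusted p = 0.00984 from limma), while it was 1.89 and not called without injury replicate 1 (adjusted p = 0.0850 from limma).

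**Figure D2:**
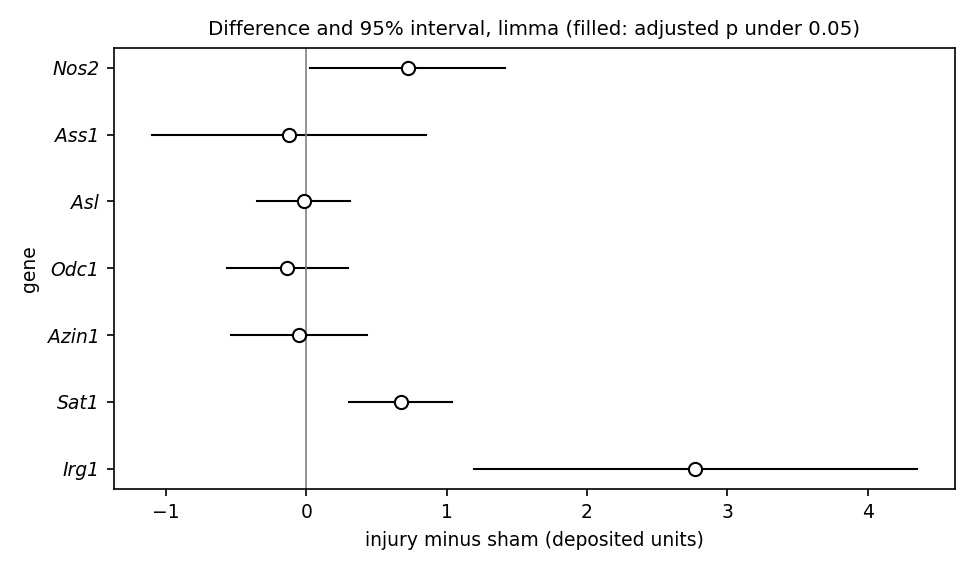
Injury minus sham in deposited units for the 7 genes, as points with the 95% interval from limma, which is not adjusted for the number of genes. The intervals of *Nos2*, *Sat1* and *Irg1* lie above 0, and no point is filled, since none of the 7 genes had an adjusted p-value under 0.05.

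Promoter sequences were shown for *Irg1*, *Sat1* and *Odc1*, since the first of these had the highest difference of the 7 genes, and the latter are the breakdown and synthesis enzymes of polyamines with unlike values. Of the 7 genes 4 matched the RefSeq promoter table (GRCm38.p6), namely *Acod1* (*Irg1*), *Sat1*, *Odc1* and *Ass1*, while *Nos2*, *Asl* and *Azin1* did not. Each sequence below is the 250 bases before the RefSeq start, 5′ to 3′ on the strand of the gene. Each was found once in the matching chromosome of mm9, at chr14:103445979-103446228 for *Acod1*, chrX:151650993-151651242 for *Sat1* and chr12:17551429-17551678 for *Odc1*. The capitals mark a match to any of 7 motifs searched on both strands.
Acod1: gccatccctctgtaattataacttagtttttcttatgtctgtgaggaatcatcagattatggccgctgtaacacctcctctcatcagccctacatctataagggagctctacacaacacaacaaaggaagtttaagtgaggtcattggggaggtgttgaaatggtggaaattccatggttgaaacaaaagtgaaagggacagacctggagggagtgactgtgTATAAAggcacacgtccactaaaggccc
Sat1: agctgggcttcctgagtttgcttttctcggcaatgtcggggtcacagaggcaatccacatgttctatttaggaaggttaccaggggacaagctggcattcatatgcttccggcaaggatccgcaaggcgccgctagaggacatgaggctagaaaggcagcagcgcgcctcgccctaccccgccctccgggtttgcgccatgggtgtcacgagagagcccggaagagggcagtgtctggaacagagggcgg
Odc1: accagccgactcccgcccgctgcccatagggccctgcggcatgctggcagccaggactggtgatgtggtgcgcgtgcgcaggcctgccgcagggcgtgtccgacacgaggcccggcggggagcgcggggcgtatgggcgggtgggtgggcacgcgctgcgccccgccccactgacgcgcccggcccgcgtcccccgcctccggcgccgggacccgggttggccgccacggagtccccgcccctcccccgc
For C/EBP the motif searched was TTGCNNAA, for AP-1 it was TGANTCA, and for STAT it was TTCNNNGAA together with the STAT6 form that has a further N. The NF-kB motif, the E-box CACGTG and the TATA box were searched as well. *Acod1* held the TATA box, searched as TATAAA, from base -28 to base -23 before the start, a motif present in 12.4% of the 32851 promoter windows of the table. *Ass1* held CACGTG from base -36 to base -31, present in 6.02% of the windows. The GENCODE start of *Irg1* lies before the RefSeq start, so the end of the *Acod1* window, with the TATA box, is inside the gene as GENCODE gives it. Neither match overlapped another motif. None of the letters of the 7 motifs was found in the windows of *Sat1* and *Odc1*, which says nothing of the factors that act there. The shares of all windows that held the other motifs were 7.02% for the STAT motif, 5.85% for its STAT6 form, 9.56% for the C/EBP motif, 6.75% for the AP-1 motif and 4.11% for the NF-kB motif. The window of *Acod1* was 44.4% G and C with 2 CpG sites, and those of *Sat1* and *Odc1* were 59.6% and 80.0% with 15 and 35 CpG sites, against a median of 52.4% and 6 CpG sites over all windows.

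The differences of *Irg1* and *Nos2*, both known as genes of inflammatory macrophages, were set side by side. For this the value of *Nos2* was subtracted from that of *Irg1* in every library, and the result was fitted as an additional row, which assumes that the deposited scale is the same for both genes. *Irg1* minus *Nos2* was -2.24 and -1.14 in the sham libraries and 0.84 and -0.12 in the injury libraries. Both injury libraries lay above both sham libraries, with injury replicate 1 the highest. It was higher after injury by 2.05 (standard error 0.46, 95% interval 0.90 to 3.20). These genes were compared with their differences known.

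Within the injury group, replicate 1 had the higher value of 6 of the 7 genes, an order found in 48.9% of all genes. The gap was 1.76 for *Irg1*, 1.21 for *Ass1* and 0.81 for *Nos2*, but 0.21 for *Sat1*. *Asl* was the exception, with a gap of -0.05. Within the sham group, *Irg1* was lower in sham replicate 1 than in sham replicate 2 by 1.02, while the gaps of *Nos2*, *Ass1*, *Asl*, *Odc1* and *Sat1* were each under 0.1 in size.

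For *Nos2* and *Irg1*, the rows of the table nearest to theirs were found by the Euclidean distance between deposited values over the 4 libraries, as a description that takes the scale to be the same for all genes. Nearest to *Irg1* were *Il1rn*, which encodes the interleukin-1 receptor antagonist (distance 0.37), and the chemokine genes *Cxcl2* (0.56) and *Ccl4* (0.61). Nearest to *Nos2* were *Dio2*, the type II deiodinase gene (0.22), *Adcy3*, an adenylyl cyclase gene (0.45), and *Car14*, a carbonic anhydrase gene (0.45). *Dio2*, whose product converts thyroxine to its active form in brown fat and which is also among the brown adipocyte markers below, was at 0.16 and 0.25 after sham operation and at 1.41 and 0.67 after injury, and was not called (adjusted p = 0.106 from limma).

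The other genes of these pathways were taken from a list of 61 symbols grouped by role, of which 53 had a row. Among the 53, 2 were called higher and 2 lower by limma, against 3.76% and 3.67% of all genes. The median difference of the list was 0.15. *Amd1* and *Amd2*, near-identical copies of the S-adenosylmethionine decarboxylase gene, had identical values in all libraries and are uncertain as separate genes.

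None of the 7 arginine transport genes with a row was called by limma, and their median difference was -0.01. The highest was that of *Slc7a7*, a subunit of a cationic amino acid transporter, which was at -0.59 and -0.64 in the sham libraries and at 0.31 and -0.27 in the injury libraries (difference 0.63, adjusted p = 0.134 from limma). The difference of *Slc7a7* was 0.92 without injury replicate 2, where it was called (adjusted p = 0.0262 from limma), and 0.34 without injury replicate 1 (adjusted p = 0.291 from limma). It was not called without sham replicate 1 or sham replicate 2 (adjusted p = 0.400 and 0.352 from limma). The cationic amino acid transporter genes *Slc7a1* and *Slc7a2* both had lower values in both injury libraries, with differences of -0.58 and -0.44 that were not called (adjusted p = 0.122 and 0.183 from limma). Of the urea cycle, creatine and agmatine genes, 2 of the 6 listed had a row, and neither was called. *Gamt*, an enzyme gene of creatine synthesis, had the larger difference of these, -0.27 (adjusted p = 0.257 from limma).

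Among 9 genes of the other nitric oxide synthases, of their cofactor and of their inhibitors, 1 was called lower, *Nos3*, against 3.67% of all genes. *Nos3*, which encodes the endothelial nitric oxide synthase, was at 1.10 and 1.03 in the sham libraries and at -0.40 and -0.23 in the injury libraries. It fell by 1.38 on the deposited scale (standard error 0.14, adjusted p = 0.0285 from limma), in the direction opposite to the values of *Nos2*. Leaving out either injury library kept this call, and leaving out either sham library lost it (adjusted p = 0.176 without sham replicate 1 and 0.113 without sham replicate 2 from limma). *Ddah1* and *Ddah2*, which degrade methylarginine inhibitors of nitric oxide synthases, had differences of -0.65 and -0.58 without being called (adjusted p = 0.0933 and 0.110 from limma). *Gch1*, the rate-limiting enzyme gene of tetrahydrobiopterin synthesis, had overlapping groups (difference -0.15, adjusted p = 0.661 from limma).

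Of the 7 ornithine and proline genes 1 was called lower, *Oat*, against 3.67% of all genes. *Oat* encodes ornithine aminotransferase, which links ornithine with proline and glutamate. It was at 0.39 and 0.41 in the sham libraries and at -0.23 and -0.31 in the injury libraries, and fell by 0.67 on the deposited scale (standard error 0.13, adjusted p = 0.0462 from limma). With a block for the replicate number *Oat* was not called (adjusted p = 0.0751 from limma). Fits that omitted a library gave -0.71 to -0.64 for *Oat*, which was not called in any of these 4 fits. In those without a sham library almost no gene of the table was called. *Pycr1*, the last step of proline synthesis, had a difference of -0.41 and was not called (adjusted p = 0.131 from limma).

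None of the 17 other polyamine genes with a row was called, and their median difference was 0.15. *Smox*, the spermine oxidase gene, had the highest difference of these, 0.93 (standard error 0.33, adjusted p = 0.136 from limma). It was at -0.55 and -0.46 in the sham libraries and at 0.92 and -0.07 in the injury libraries, so its size rested on injury replicate 1, and it was called without injury replicate 2 (1.42, adjusted p = 0.0103 from limma) but not without injury replicate 1 (0.43, adjusted p = 0.208 from limma). *Srm* and *Sms*, the spermidine and spermine synthase genes, had differences of 0.15 and 0.47, and *Oaz1*, the antizyme that targets ornithine decarboxylase for degradation, of 0.24. None of the 3 was called (adjusted p = 0.521, 0.172 and 0.299 from limma).

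Of 11 genes around the source, target and breakdown of itaconate, 2 were called higher and none lower, and the median difference was 0.57. In 10 of the 11 both injury libraries lay above both sham libraries. Over all genes these shares were 3.76% for calls in this direction and 31.6% for this order. *Cs*, the citrate synthase gene, was at 0.01 and 0.16 in the sham libraries and at 0.86 and 0.79 in the injury libraries. *Cs* rose by 0.74 (standard error 0.14, adjusted p = 0.0435 from limma). With a block for the replicate number *Cs* was not called (adjusted p = 0.0685 from limma). *Sucla2*, a subunit of succinyl-CoA synthetase, rose by 1.30 (standard error 0.20, adjusted p = 0.0309 from limma), from 0.05 ± 0.34 (SD, n = 2) to 1.35 ± 0.08 (SD, n = 2). *Cs* and *Sucla2* encode TCA cycle enzymes, and their injury libraries were within 0.11 of each other, unlike those of *Irg1*. With 2 injury libraries this is a description, and a link of these genes to *Irg1* was not tested. *Cs* and *Sucla2* lost their call in every fit that left out a library except the fit without injury replicate 2. In the fits without a sham library almost no gene of the table was called. The succinate dehydrogenase genes *Sdha*, *Sdhb*, *Sdhc* and *Sdhd*, which encode the enzyme that itaconate inhibits, had differences of 0.54, 0.57, 0.64 and 0.68 without being called (adjusted p = 0.0970, 0.0750, 0.0549 and 0.0545 from limma). *Aco1*, the cytosolic aconitase, had a difference of -0.19 and was not called (adjusted p = 0.441 from limma).

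Of 11 genes for transcription factors of macrophage activation, 2 were called higher, against 3.76% of all genes. *Cebpb*, which encodes C/EBPβ, was at -0.42 and -0.59 in the sham libraries and at 0.58 and 0.74 in the injury libraries, and rose by 1.17 (standard error 0.15, adjusted p = 0.0285 from limma). *Irf5*, an interferon regulatory factor gene of inflammatory macrophages, was at -1.15 and -1.38 after sham operation and at 0.87 and 0.21 after injury, and rose by 1.81 (standard error 0.25, adjusted p = 0.0291 from limma). The differences of *Cebpb* and *Irf5* were 1.25 and 1.92 without sham replicate 1, and 1.09 and 1.69 without sham replicate 2. Neither was called in these fits, in which almost no gene of the table was called. *Klf4*, a Krüppel-like factor gene, had a difference of -1.03, with both injury libraries below both sham libraries, and was not called (adjusted p = 0.160 from limma). *Stat6* and *Hif1a* had differences of 0.16 and -0.31 and were not called (adjusted p = 0.516 and 0.332 from limma).

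**Figure D3:**
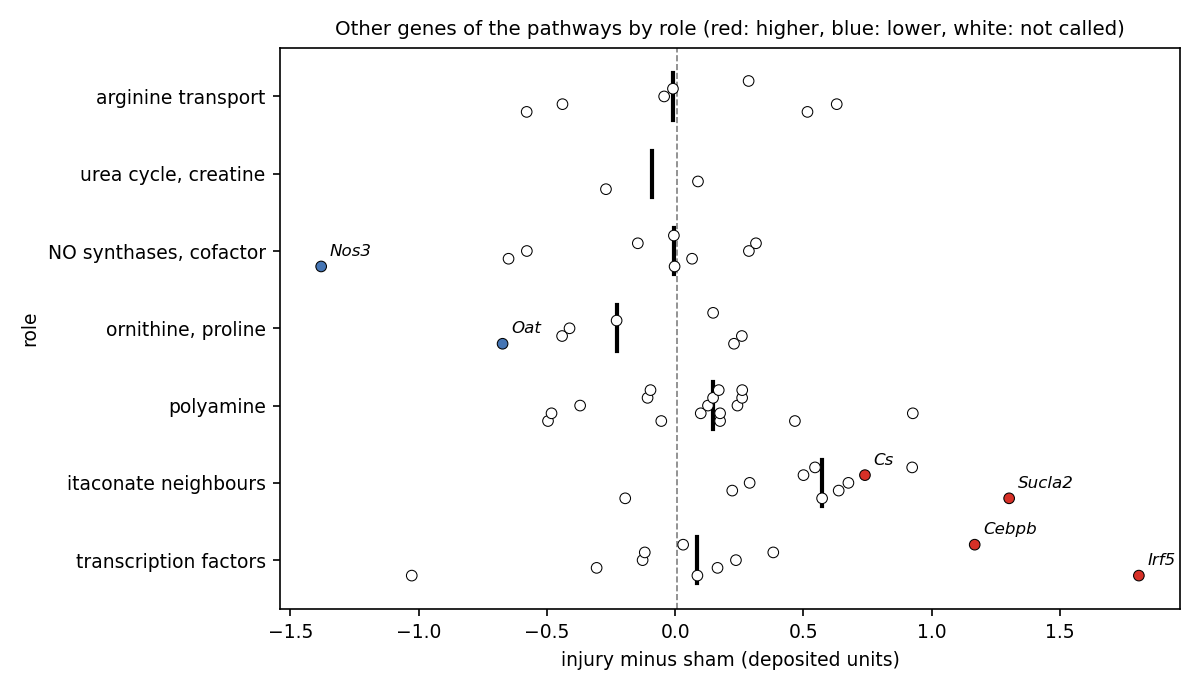
Injury minus sham in deposited units for the 53 other pathway genes and 11 transcription factor genes, grouped by role, with a thick line at the median of each role and a dashed line at the median of all genes (0.01). Red points were called higher and blue points lower by limma, and the role around itaconate has the highest median, 0.57.

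Marker genes of immune cells were examined beside these genes. Of 12 macrophage markers 7 were called higher by limma, against 3.76% of all genes, and all 12 had a difference above 0, with a median of 1.28. The mean over the macrophage list was -1.04 and -1.03 in the sham libraries and 0.49 and -0.10 in the injury libraries. The defining markers *Csf1r* and *Adgre1*, which encode the CSF1 receptor and F4/80, had differences of 1.33 (called, adjusted p = 0.0344 from limma) and 1.08 (not called, adjusted p = 0.147 from limma). The 8 neutrophil markers with a row had list means of -1.02 and -0.66 after sham operation and of 1.11 and 0.07 after injury, and 2 were called higher. Of these 8, 7 had both injury libraries above both sham libraries, against 31.6% of all genes, and the exception was *Lcn2*, the lipocalin 2 gene, with both below (difference -0.97, adjusted p = 0.0594 from limma). For *S100a8*, a neutrophil alarmin gene, the values were -1.63 and -0.97 after sham operation and 1.22 and -0.11 after injury, and it was not called (adjusted p = 0.0707 from limma). Of 7 monocyte markers 1 was called higher, *Ccr2*, the CCL2 receptor gene (2.30, adjusted p = 0.0285 from limma), and the median was 0.63. The 5 erythroid markers had a median of 1.34, with 1 called higher, and the 8 skeletal muscle markers with a row a median of -0.70, with none called by limma. The skeletal muscle list means were 0.60 and -0.15 in the sham libraries and -0.17 and -0.28 in the injury libraries. In this mean sham replicate 2 thus lay near the injury libraries, and sham replicate 1 stood apart. Of these 8, 5 had an unadjusted p-value under 0.05, against 29.5% of all genes, 4 of them with a difference below 0 and 1, *Pvalb*, the parvalbumin gene, with a difference of 1.11 (adjusted p = 0.0713 from limma). Replicate 1 of the injury group had the higher mean for the macrophage and neutrophil lists, as it had for *Irg1* and *Nos2*. This order was not particular to these lists. It also held for the monocyte (0.42 against -0.12) and brown adipocyte lists (2.19 against 2.01). The adipocyte (-0.13 against 0.26) and erythroid lists (0.36 against 0.97), among others, had the reverse order. The part of immune cells or of other cells in the differences of *Nos2*, *Sat1* and *Irg1* was not tested.

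The lists of macrophage activation gave unlike values in the injury libraries. The 7 classical activation genes with a row had list means of 1.37 in injury replicate 1 and 0.04 in injury replicate 2, and all 7 were higher in the former. The 7 alternative activation genes with a row had means of -0.18 and 0.08, and 2 of the 7 were higher in injury replicate 1. With 2 libraries in the group, these are descriptions of single libraries. Between injury and sham, 3 of the 7 alternative activation genes were called higher, against 3.76% of all genes, with a median difference of 0.98, and 2 of the 7 classical activation genes, with a median difference of 1.30. Called in the alternative list were *Clec10a*, a macrophage lectin gene (1.18, adjusted p = 0.0370 from limma), *Egr2*, a transcription factor gene (1.13, adjusted p = 0.0291 from limma), and *Ccl24*, a chemokine gene (1.40, adjusted p = 0.0403 from limma), whereas *Mgl2*, a related lectin gene, and *Cd163*, the haemoglobin scavenger receptor gene, had differences of -0.64 and -0.81 and were not called (adjusted p = 0.272 and 0.191 from limma).

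Beside the fall of *Nos3*, all 9 endothelial markers had a difference below 0, as had 6211 of all 12661 genes, and 2 of them were called lower, against 3.67% of all genes, with a median of -0.69. The list means were 0.60 and 0.66 in the sham libraries and -0.23 and -0.17 in the injury libraries. *Pecam1*, a defining endothelial marker, fell by 1.04 on the deposited scale (adjusted p = 0.0291 from limma), and *Kdr*, the VEGF receptor gene, had a difference of -0.20 (adjusted p = 0.536 from limma). Beside the higher values around itaconate, 7 of the 9 brown adipocyte markers were called higher, against 3.76% of all genes, with a median of 1.18. The 12 general adipocyte markers, the defining cells of the tissue, all had a row, 6 with a difference above 0 and 6 below, with a median of -0.13, and 1 of them, *Plin1*, the lipid droplet perilipin gene, was called lower (-0.74, adjusted p = 0.0444 from limma). Of 6 smooth muscle markers with a row 4 were called lower, against the same 3.67%, with a median of -2.15, among them *Myh11*, the smooth muscle myosin gene (-2.52, adjusted p = 0.0499 from limma). Of 8 fibroblast markers 5 were called lower, also against 3.67%, with a median of -0.87. The part of endothelial cells, smooth muscle cells, fibroblasts and adipocytes in the values of *Nos3*, *Cs* and *Sucla2* was not tested.

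**Figure D4:**
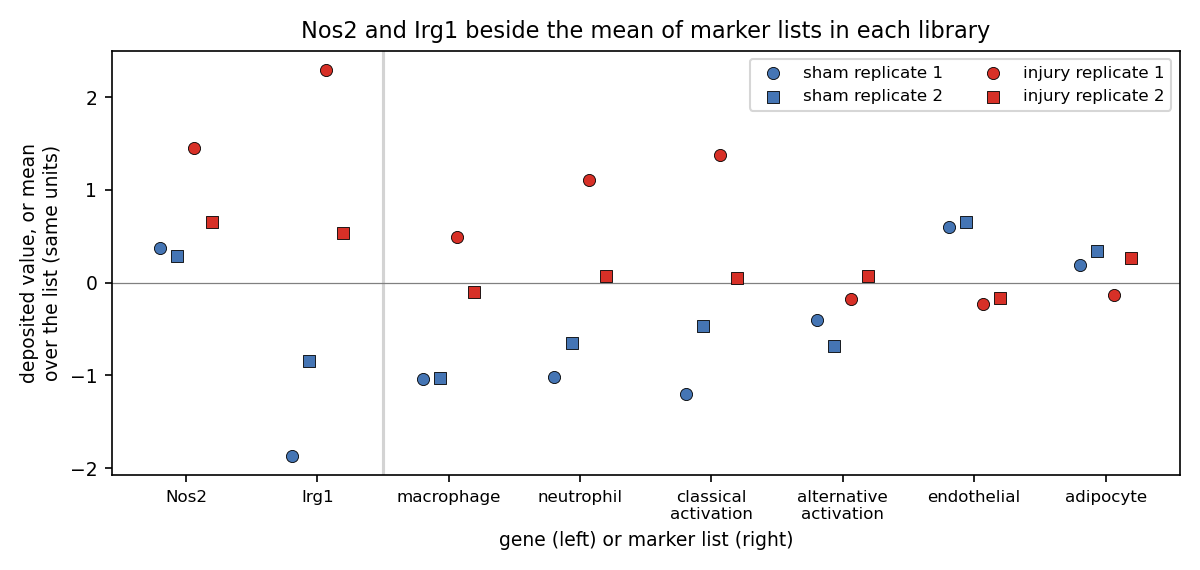
Deposited value of *Nos2* and *Irg1* (left) and the mean deposited value over each of 6 marker lists (right) in every library, with sham in blue, injury in red, circles for replicate 1 and squares for replicate 2. The macrophage, neutrophil and classical activation means are highest in injury replicate 1, as are *Nos2* and *Irg1*, and the endothelial means are lower after injury.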

How the data were processed

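The authors prepared stranded poly(A) libraries. Per the methods and processing notes, reads were checked (FastQC 0.11.8), freed of adaptors (Cutadapt 1.18), quality trimmed (Trimmomatic 0.39) and aligned to mm9 (STAR 2.6.0a), and the authors counted reads per gene with featureCounts and used DESeq2 1.28.0. They deposited a signed score per gene and library on a log-like scale, not counts. How it was made from counts is not given in the sources used here, so depth and abundance are unknown and no filter on low values was applied. The values ran from -2.27 to 6.45, and the library medians were within 0.01 of 0.

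Here limma 3.58.1 in R 4.3.3 was fitted to all 12661 genes and 4 libraries with the group as the only term (2 residual and 3.48 prior degrees of freedom), with Benjamini-Hochberg adjustment and a threshold of 0.05, and it was tested on simulated data. No source says whether the libraries came from separate animals, so p-values measure the spread between these libraries, which may be technical. The members and lists were chosen with earlier results of these data known. Named genes were the 7 members, the pathway and transcription factor genes called, the gene of largest difference in each role, the 3 nearest genes of *Nos2* and *Irg1* and leading markers. Other pathway genes were added after their values were seen (*Slc7a1*, *Slc7a2*, *Ddah1*, *Ddah2*, *Gch1*, *Pycr1*, *Srm*, *Sms*, *Oaz1*, *Amd1*, *Amd2*, *Sdha* to *Sdhd*, *Aco1*, *Stat6*, *Hif1a*, *Klf4*), as were the markers *Cd163*, *Lcn2*, *Egr2*, *Ccl24* and *Pvalb*. Promoters of *Irg1*, *Sat1* and *Odc1* were chosen after their values were seen. Some genes of these pathways are not reported here and were left out of the lists and their counts, but not out of the fit. Coordinates are GENCODE on NCBIM37, the assembly of mm9. The alternatives tried were quantile normalization, scaling of the columns to a common spread, identical rows entered once, a robust prior for the variance, a threshold of 0.1, a block for the replicate number and omission of each library. Plots were drawn with matplotlib 3.10.9.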

Additional observations from a re-analysis of the deposited data

How the results depend on the processing

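The 35 genes named from the members and from the pathway and transcription factor lists had 209 values over the 6 alternatives that keep all 4 libraries, and 197 of these kept their direction and their side of the threshold, 2 lost a call, 10 gained one and none changed direction. The replicate block, the robust prior, identical rows entered once and the threshold of 0.1 leave every difference as it was. A direction could therefore change only under quantile normalization and scaling of the columns. The threshold of 0.1 uses the p-values of the main fit, so it can only add calls. At an adjusted p-value under 0.1, 2317 genes (18.3%), 2 members, *Sat1* (0.67) and *Irg1* (2.77), and 10 pathway genes were called. Quantile normalization and scaling of the columns each gave 1 called member in place of 0, *Irg1* at 2.42 and 2.68. The cause was not tested.

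The labels do not say whether same-numbered libraries form pairs. Their deviations correlated at -0.09 across genes, which with 2 libraries per group cannot exclude pairing. With a replicate block limma called 684 genes, of which 579 were called without it. Under the block no member was called, with 3 at an unadjusted p-value under 0.05 by limma, as had 3404 of all 12661 genes, and 2 pathway genes were called in place of 4, as *Oat* and *Cs* were not (adjusted p = 0.0751 and 0.0685 from limma).

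Leaving out each library in turn leaves 1 residual degree of freedom per gene, and the lone library is assumed to vary like the others. The number of genes called was then 0 to 1790, of members 0 to 3, of pathway genes 0 to 6 and of transcription factor genes 0 to 2. No member was called without sham replicate 1, sham replicate 2 and injury replicate 1, where 2, 2 and 3 members and 1960, 2553 and 2995 of all 12661 genes had an unadjusted p-value under 0.05 by limma. Over these fits the difference ran from 0.32 to 1.13 for *Nos2*, -0.73 to 0.48 for *Ass1*, -0.0495 to 0.0137 for *Asl*, -0.32 to 0.0479 for *Odc1*, -0.23 to 0.13 for *Azin1*, 0.57 to 0.78 for *Sat1* and 1.89 to 3.65 for *Irg1*. For *Gch1* it ran from -0.366 to 0.0746, with the sign changed without injury replicate 2. *Ass1*, *Asl*, *Odc1* and *Azin1* changed sign, and none of these 4 was called in any of these fits. Depth is unknown, and the precision is limited by 2 libraries per group.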
